A study of Mus musculus with 14 samples.

Results

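Broad accessible regions were defined as the autosomal regions of the deposited table that span 2000 bases or more from start to end. They numbered 2606 of 186623 autosomal regions (1.40%), in a table of 191271 regions. Another 103 regions of that width lay on chromosomes X and Y or on unplaced sequence and were left out. They were set against 55712 autosomal regions of 400 to 700 bases, the width around the autosomal median of 521 bases. The widths had been drawn from peaks in these same libraries, so the width of a region and its level were not independent measurements.

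ATAC-seq marks open chromatin: the Tn5 transposase inserts sequencing adapters where DNA is not wrapped in nucleosomes or otherwise covered, and reads pile up there. Most accessible sites are narrow, about the size of a single promoter or enhancer. Broad accessible stretches are known from CpG-rich promoters of active genes, from clusters of enhancers that lie side by side, and from repeated sequence whose copies are collapsed in a genome assembly. In neurons, activity changes the accessibility of many distal elements within hours, and part of those changes lasts.

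The libraries came from sorted neuronal nuclei of the mouse hippocampus, and the study followed the chromatin of neurons engaged during memory formation and recall. All animals were ArcCreERT2 x R26R-STOP-floxed-eYFP with the genotype label +/+, in which Cre driven by the activity-dependent Arc gene switches on eYFP in cells active while 4-hydroxytamoxifen is present. All animals were given 4-hydroxytamoxifen 1 h before contextual fear conditioning with foot shock on day 0, and nuclei were stained for NeuN, Arc and GFP before sorting. The Reactivated group (3 libraries) was recalled on day 5 and collected on days 5, 6 and 7 for replicates 1, 2 and 3. The Late group (4 libraries) was collected on day 5 without recall. The Early group (3 libraries) and the Basal group (4 libraries) carry the same treatment label, foot shock and collection on day 0 without recall, and differ in their titles alone. For Early and Basal, collection is stated at 1.5 to 2 h after conditioning. A period of 48 h in the dark is stated for Late and Reactivated animals, and none is stated for Early and Basal animals. For each condition, 10 to 12 mice were pooled, with a target of 10000 nuclei. The design text states 3 biological replicates, and which mice gave which library is not labelled, so p-values measure the spread between libraries, part of which may be technical.

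Libraries of the Late group stood apart before any comparison. Their read totals, recovered from the RPKM steps, were 46134255 to 47375214. Outside the Late group, totals were 54257224 to 54269495, except for 56251679 in Reactivated 1. The level exceeded by the top 0.1% of regions in Late libraries was 4.10 to 4.39 times the median, against 8.17 to 9.07 in Reactivated, 5.43 to 8.97 in Early and 6.50 to 10.2 in Basal libraries. The mean chi-square of recovered reads between replicates in broad regions, which is 1 for sampling noise alone, was 1.76 to 2.50 in Late, 3.76 to 10.8 in Reactivated, 4.68 to 12.1 in Early and 3.11 to 11.1 in Basal. A narrower range of levels in Late nuclei and a different preparation or processing of that group cannot be told apart. The share of reads that fell in regions was 21.3% to 24.0% in Reactivated, 18.4% to 20.02% in Late, 13.8% to 27.8% in Early and 13.2% to 19.3% in Basal libraries. The labelled cell type was not checked against marker genes, since the table gives no gene names and an annotation of its build, mm9, was not used here.

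Broad regions were mostly only slightly over the limit. The median width was 2272 bases, with quartiles of 2111 and 2547 bases, and 193 regions reached 3000 and 17 reached 4000 bases. The longest covered 11009 bases. Broad regions made up 5.25% of the bases in autosomal regions (6254985 bases). They took 7.34% to 7.91% of the reads in regions of Reactivated libraries, 6.26% to 6.38% in Late, 6.72% to 7.25% in Early and 7.87% to 8.84% in Basal. Depth was several times higher per region: the median broad region held 257 to 294 reads in Reactivated, 174 to 196 in Late, 153 to 290 in Early and 170 to 256 in Basal libraries, whereas the median region of 400 to 700 bases held 25 to 47 reads in any library.

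Broad regions were somewhat isolated. The nearest other region lay a median of 4925 bases away (quartiles 2318 and 8108), compared with 3177 bases for regions of 400 to 700 bases (1352 and 6784). Another region lay within 1000 bases of 336 broad regions (12.9%), compared with 18.2% of regions of 400 to 700 bases. Their share of a chromosome's regions was 0.756% on chromosome 7 (30 of 3968 regions) and 1.23% to 1.69% on all other autosomes, lowest on chromosome 1 and highest on chromosome 13. The closest neighbours were a pair on chromosome 14, chr14:88865978-88868188 and chr14:88868448-88871320, 260 bases apart. Mean levels in the first were 1.69 ± 0.313 in Reactivated, 1.52 ± 0.0876 in Late, 1.67 ± 0.178 in Early and 1.73 ± 0.284 in Basal (SD), and neither region passed the test in any comparison.

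Level is used below for the RPKM of a region (its read count scaled to region length and library depth) divided by the median RPKM of its library, so that 1 marks the median region. Over the 14 libraries, the mean level of broad regions had a median of 1.38 (quartiles 0.993 and 2.09), against 0.973 (0.804 and 1.21) for regions of 400 to 700 bases. The mean level lay between 2 and 4 in 616 broad regions, between 4 and 8 in 98 and at 8 or above in 6. All 14 libraries were above their own median in 1168 broad regions (44.8%), compared with 6.23% of regions of 400 to 700 bases. All 14 were below their median in 184 broad regions (7.06%), compared with 6.20% of regions of 400 to 700 bases. Within the class, width and mean level were only weakly related (Spearman's rho = 0.11 over 2606 regions, a description across regions of shared libraries).

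The thinnest members stood at the lowest value that the table holds. In all 14 libraries, 14 broad regions were listed at the equivalent of 1 read, of which 12 lay on chromosome 14 between 3516780 and 6975006 and 2 on chromosome 3 between 92041739 and 92078598. The lowest was chr14:3756125-3759267, at a level of 0.00391 to 0.00436 in Reactivated, 0.00472 to 0.00526 in Late, 0.00342 to 0.00584 in Early and 0.00495 to 0.00644 in Basal libraries. No value of the table is 0, so 1 read may stand for none, and differences between libraries at such regions reflect only the division by the median. In at least 1 library, 23 broad regions (0.883%) stood at 1 read, compared with 2.45% of regions of 400 to 700 bases.

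Replicates agreed more closely in broad regions. The correlation of log2 levels between replicate libraries, across regions, was 0.93 to 0.97 in Reactivated, 0.95 to 0.96 in Late, 0.92 to 0.95 in Early and 0.94 to 0.97 in Basal. For regions of 400 to 700 bases it was 0.71 to 0.78, 0.74 to 0.78, 0.54 to 0.69 and 0.70 to 0.75 in the same groups. The median SD of the log2 level between replicates of a broad region was 0.16 in Reactivated, 0.11 in Late, 0.18 in Early and 0.19 in Basal, compared with 0.28, 0.24, 0.32 and 0.30. Broad regions hold more reads and a wider spread of levels, and the part of these in the agreement was not tested.

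Broad regions were raised over regions of 400 to 700 bases in every library, by more in Reactivated and Basal than in Late and Early. The median level of broad regions was 1.48, 1.51 and 1.56 in the Reactivated libraries, 1.24, 1.27, 1.23 and 1.25 in the Late, 1.21, 1.33 and 1.31 in the Early and 1.67, 1.44, 1.45 and 1.49 in the Basal libraries. The 7 Reactivated and Basal libraries all lay above the 7 Late and Early libraries. Regions of 400 to 700 bases had medians of 0.931 to 0.971 throughout. These are bulk nuclei, in which fewer nuclei with an open region and less signal in each nucleus cannot be told apart.

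The ratio of both medians within a library does not depend on how libraries are scaled. On the log2 scale it was 0.62, 0.69 and 0.70 in Reactivated, 0.35, 0.39, 0.34 and 0.37 in Late, 0.33, 0.48 and 0.46 in Early and 0.85, 0.61, 0.62 and 0.66 in Basal libraries. Group means were 0.67 ± 0.04, 0.36 ± 0.02, 0.42 ± 0.08 and 0.68 ± 0.11 (SD over libraries) in the same order, or 1.59, 1.29, 1.34 and 1.61 as folds. Reactivated libraries stayed clear of the Late libraries by 0.31 and of the Early libraries by 0.25 in the mean, with no overlap. Basal was above Late by 0.32 and above Early by 0.26, again with no overlap, whereas Reactivated and Basal overlapped, as did Late and Early. No p is given for these class medians. The share of reads in regions went with the ratio within some groups: Early libraries with 13.8%, 18.1% and 27.8% had ratios of 0.33, 0.46 and 0.48, and Basal 1, with the highest Basal share (19.3%), had the highest Basal ratio. Its part in the differences between groups was not tested for these ratios.

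**Figure D1:**
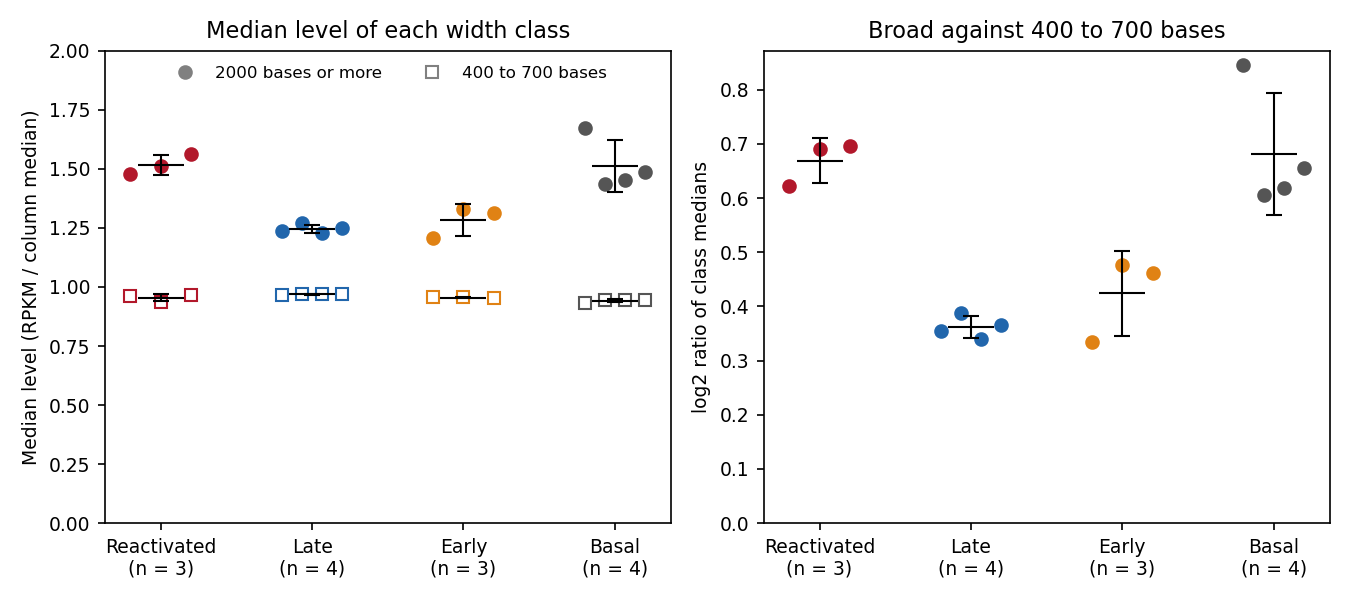
Left, median level (RPKM over the library's median) of broad regions (filled circles) and of regions of 400 to 700 bases (open squares) in each library, and right, the log2 ratio of both medians; black bars show group mean and SD over libraries (n = 3, 4, 3 and 4). Broad medians are 1.48 to 1.56 in Reactivated, 1.23 to 1.27 in Late, 1.21 to 1.33 in Early and 1.44 to 1.67 in Basal, while the narrower regions stay between 0.931 and 0.971.

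Above 700 bases the median level was higher in wider classes in all 4 groups, and the groups came apart at the wide end. Regions of 1500 to 2000 bases had a median level of 1.32 ± 0.03 in Reactivated, 1.16 ± 0.01 in Late, 1.14 ± 0.06 in Early and 1.22 ± 0.05 in Basal (SD over libraries). Regions of 2000 to 3000 bases had 1.50 ± 0.04, 1.24 ± 0.02, 1.27 ± 0.07 and 1.49 ± 0.10. The 193 regions of 3000 bases or more had 1.93 ± 0.09, 1.52 ± 0.01, 1.58 ± 0.08 and 1.92 ± 0.18. Reactivated libraries were above all others from 1000 to 2000 bases, and Basal libraries reached them only from 2000 bases on. Basal was also the group with the highest level at the other end, 1.23 ± 0.04 in regions under 200 bases, against 0.951 ± 0.161 in Reactivated, 0.918 ± 0.022 in Late and 1.06 ± 0.18 in Early.

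**Figure D2:**
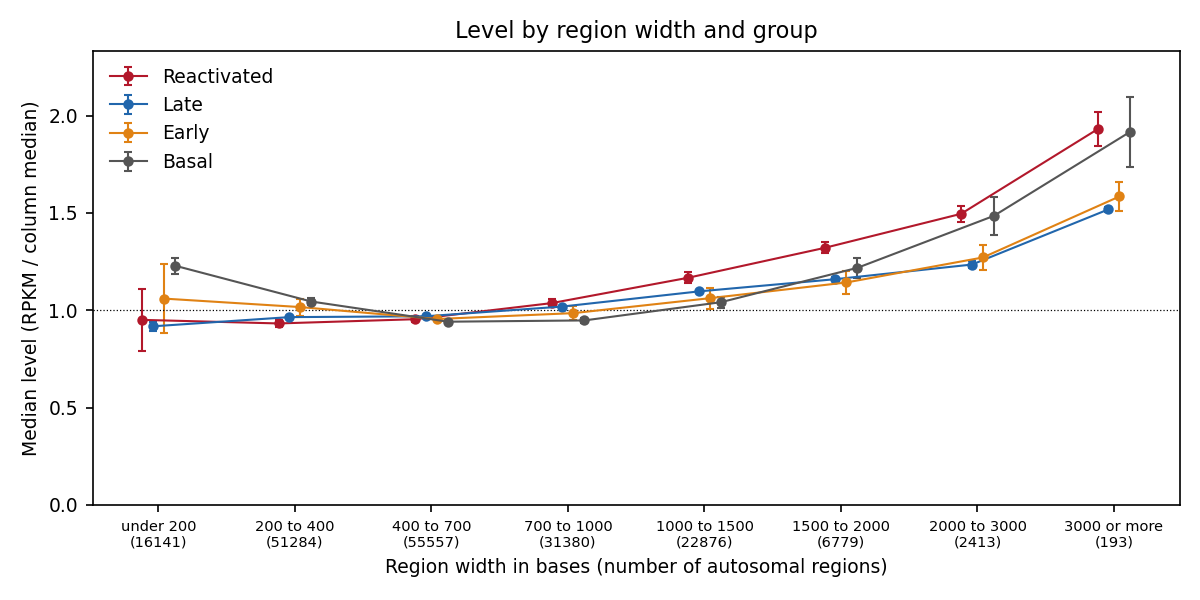
Median level (RPKM over the library's median) against region width in bases for the 4 groups; points are means of the library medians, bars their SD (n = 3, 4, 3 and 4), and the dotted line marks the median region. From 2000 bases on, Reactivated (1.50 and 1.93) and Basal (1.49 and 1.92) run above Late (1.24 and 1.52) and Early (1.27 and 1.58).

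Region by region, the same order was more frequent in broad regions than in regions of 400 to 700 bases. Of the 2491 broad regions that passed the filter on low levels (the other 115 were among the 10% of all regions with the lowest mean), 1339 (53.8%) had Reactivated and Basal means both above the Late and Early means, compared with 17% of regions of 400 to 700 bases. The reverse was seen in 178 (7.15%), compared with 19.2%. The highest mean was that of Reactivated in 1015 broad regions (40.7%), of Late in 175 (7.03%), of Early in 268 (10.8%) and of Basal in 1033 (41.5%). Among regions of 400 to 700 bases these shares were 27.4%, 21.0%, 22.9% and 28.7%. The lowest was that of Reactivated in 168 (6.74%), of Late in 1208 (48.5%), of Early in 637 (25.6%) and of Basal in 478 (19.2%). Among regions of 400 to 700 bases the shares were 20.7%, 20.4%, 22.3% and 36.6%.

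Differences between groups were tested for every region with limma on log2(level + 0.25), which understates the change of low regions, with adjustment over all 172143 regions tested and a threshold of 0.05. The Reactivated comparisons share the Reactivated libraries, and those with Basal share the Basal libraries, so the counts are not independent of one another.

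Reactivated against Late sets animals recalled on day 5 against animals collected on day 5 without recall. Reactivated replicates 2 and 3 were collected on days 6 and 7, so recall and day of collection cannot be told apart in them. Every change that passed was a gain: 160 broad regions were higher in Reactivated (6.42%), against a background of 0.709% of all regions tested, and 0 were lower (background 0.358%). At an unadjusted p under 0.05, 1009 of 2491 broad regions differed in either direction, against 25986 of all 172143 regions tested. The median log2 fold change of broad regions was 0.30, against 0.02 for regions of 400 to 700 bases and 0.05 for all regions. The regions that passed had a median level of 3.89 and fold changes of 0.67 to 2.58 on the log2 scale. In 1233 broad regions (49.5%) every Reactivated library was above every Late library (background 12%), and in 78 (3.13%) every one was below (background 6.28%).

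The size of that difference followed the level. Its median was 0.06 in broad regions with a mean level under 1, 0.26 at 1 to 2, 0.54 at 2 to 4, 0.90 at 4 to 8 and 1.21 in the 6 regions at 8 or more. In regions of 400 to 700 bases of the same levels it was -0.04, 0.07, 0.32, 0.68 and 0.92. Of broad regions at 4 to 8, 70 of 98 passed, and of those under 1 none of 549 did. The classes use the mean over all 14 libraries, those compared included, so level and difference were not independent. After quantile normalization 10 broad regions were higher and 1 was lower, with a median of 0.19 among broad regions and 0.02 among all. The number that passed depended on single libraries: it was 2 to 14 without any 1 of the 7 Reactivated and Late libraries, 70 without Basal 4, 78 without Early 3, 99 without Basal 2, 270 without Basal 1 and 299 without Early 1. On deposited RPKM it was 4 higher and 0 lower, with a median of 0.32 among broad regions and 0.09 among all, and with the Late libraries averaged to 1 sample it was 0 (246 at an unadjusted p under 0.05).

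Late against Basal gave the most changes. In Late, 896 broad regions were lower (36.0%; background 16.3%) and 108 were higher (4.34%; background 14%). The median was -0.30 in broad regions and 0.05 in regions of 400 to 700 bases. On deposited RPKM, where all regions shift by a median of 0.28, the broad median was 0.04, which is -0.24 relative to all regions. The split became 235 higher and 65 lower. Over all regions tested that setting gave 41202 higher and 10380 lower, and 12.0% of broad regions passed against 30.0% of all. On levels divided by the median, the number of broad regions higher was 63 without Late 3, 67 without Late 1 and 70 without Late 2. The regions that fell had a median level of 2.00 and those that rose 1.03. Every Late library was below every Basal library in 1163 broad regions (46.7%; background 17.3%) and above in 229 (9.19%; background 15.6%).

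As with Reactivated against Late, the difference grew with the level. The medians from the lowest to the highest class were -0.04, -0.24, -0.50, -0.85 and -1.38 in broad regions and 0.02, 0.07, 0.12, -0.38 and -1.50 in regions of 400 to 700 bases. Between levels of 2 and 4, 356 of 616 broad regions fell (57.8%), compared with 142 of 1808 of the narrower regions (7.85%). In that class a broad region held a median of 425 reads and a narrower one 89.5, and the part of this depth in the counts was not tested. With the Late libraries averaged to 1 sample no broad region passed, and 510 had an unadjusted p under 0.05.

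**Figure D3:**
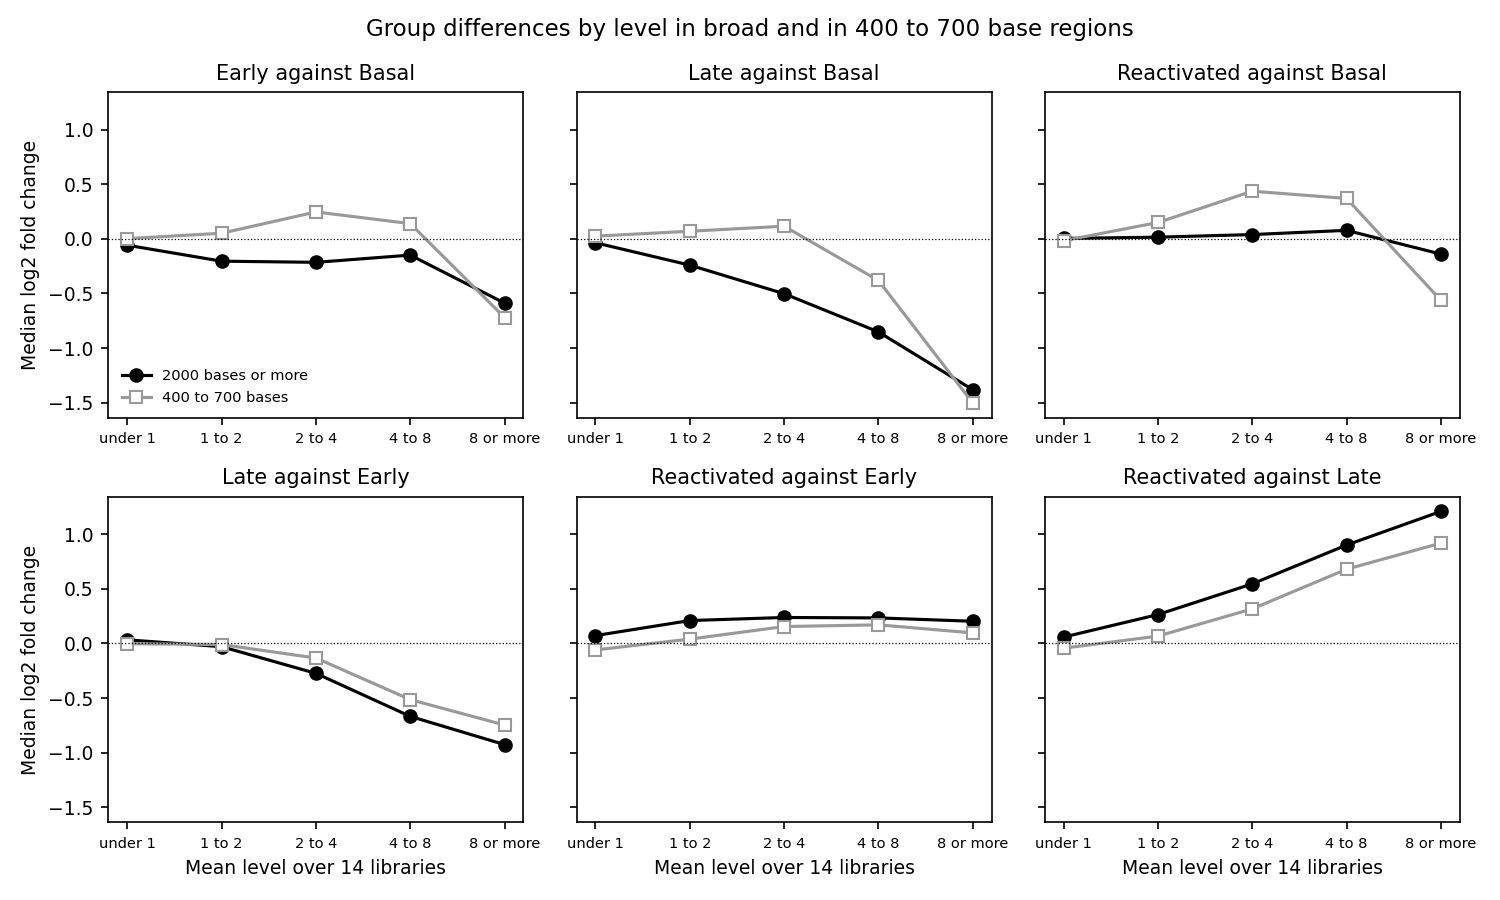
Median log2 fold change, on levels divided by the column median, against mean level in 5 classes for broad regions (filled circles) and regions of 400 to 700 bases (open squares) in the 6 comparisons. In Late against Basal the broad medians run from -0.04 to -1.38 and in Reactivated against Late from 0.06 to 1.21; on deposited RPKM the median over all broad regions turns positive in Early (0.09) and Late (0.04) against Basal, and under median-of-ratios scaling it turns negative in Reactivated against Basal (-0.01).

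Early against Basal compares groups with the same treatment label. In Early, 405 broad regions were lower (16.3%; background 6.56%) and 61 were higher (2.45%; background 7.95%). The median was -0.17 in broad regions and 0.03 in regions of 400 to 700 bases. On deposited RPKM, where all regions shift by 0.23, the broad median was 0.09, which is -0.14 relative to all regions. The split was 73 higher and 31 lower. Over all regions tested that setting gave 18836 higher and 2471 lower, and 4.17% of broad regions passed against 12.4% of all. Every Early library was below every Basal library in 770 broad regions (30.9%; background 11.4%) and above in 189 (7.59%; background 12%). The difference did not grow steadily with the level: the medians were -0.06, -0.20, -0.22, -0.15 and -0.59. Without Early 2, the library with the largest share of reads in regions, 179 broad regions were lower and 5 higher, and without Basal 3, 303 were lower and 35 higher.

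Reactivated against Basal gave fewer changes in broad regions than over the table. In Reactivated, 123 broad regions were higher (4.94%; background 10%) and 84 were lower (3.37%; background 10%), with a median of 0.02, against 0.08 in regions of 400 to 700 bases. Under median-of-ratios scaling the median was -0.01 and the split 97 higher and 107 lower. On deposited RPKM, where all regions shift by 0.39, the median was 0.38 and the split 399 higher and 6 lower. All regions tested gave 41783 higher and 8235 lower on deposited RPKM, and 16.2% of broad regions passed against 29.1% of all. No level class of broad regions had a median beyond 0.08 except the 6 at 8 or more (-0.14), whereas regions of 400 to 700 bases had 0.44 at levels of 2 to 4. Every Reactivated library was above every Basal library in 333 broad regions (13.4%; background 15.4%) and below in 300 (12.0%; background 14%). The share of reads in regions did not overlap between these groups, and with that share added to the model 0 broad regions passed (237 at an unadjusted p under 0.05). The count over all regions under that model is not given, so 237 is not read as a result about broad regions. The count was 145 higher and 52 lower without Basal 1, 96 and 44 without Reactivated 1, 24 and 29 without Reactivated 3, 52 and 39 without Reactivated 2, 55 and 41 without Basal 3, and 61 and 44 without Basal 2.

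Late against Early gave the smallest number of changes in broad regions: 14 were higher in Late (0.562%; background 0.454%) and 34 were lower (1.36%; background 0.262%). An unadjusted p under 0.05 was seen in 532 of 2491 broad regions and in 29217 of all 172143 regions tested. The 34 had a median level of 5.36 and the 14 of 1.46. The median was -0.09 in all broad regions and -0.01 in regions of 400 to 700 bases, and by level it was 0.03, -0.03, -0.27, -0.67 and -0.93. Every Late library was below every Early library in 557 broad regions (22.4%; background 7.65%) and above in 231 (9.27%; background 7.62%). The count was 1 higher and 0 lower without Early 3 or without Late 2, at most 4 in either direction without Late 1, Late 3 or Late 4, 11 and 19 without Basal 4, 14 and 22 without Reactivated 2, 12 and 20 without Reactivated 3, 13 and 65 without Basal 1 and 7 and 75 without Early 1. On deposited RPKM it was 4 higher and 0 lower, against 534 and 178 over all regions tested.

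Reactivated against Early again gave gains alone, with 134 broad regions higher in Reactivated (5.38%; background 2.42%) and 0 lower (background 1.02%). Among regions of 400 to 700 bases, 912 were higher and 441 lower. An unadjusted p under 0.05 was seen in 651 of 2491 broad regions and in 39118 of all 172143 regions tested. The median was 0.20 in broad regions, against -0.0025 in the narrower ones, and by level it was 0.07, 0.21, 0.24, 0.23 and 0.20, so that it did not follow the level above 1. Every Reactivated library was above every Early library in 874 broad regions (35.1%; background 13.8%) and below in 103 (4.13%; background 9.48%). The count of gains was 6 without Reactivated 1, 15 without Early 1, 43 without Reactivated 3, 50 without Early 3, 69 without Reactivated 2, 82 without Late 4, 83 without Late 3 and 217 (with 11 losses) without Early 2. On deposited RPKM it was 32 higher and 0 lower, against 1625 and 717 over all regions tested.

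**Figure D4:**
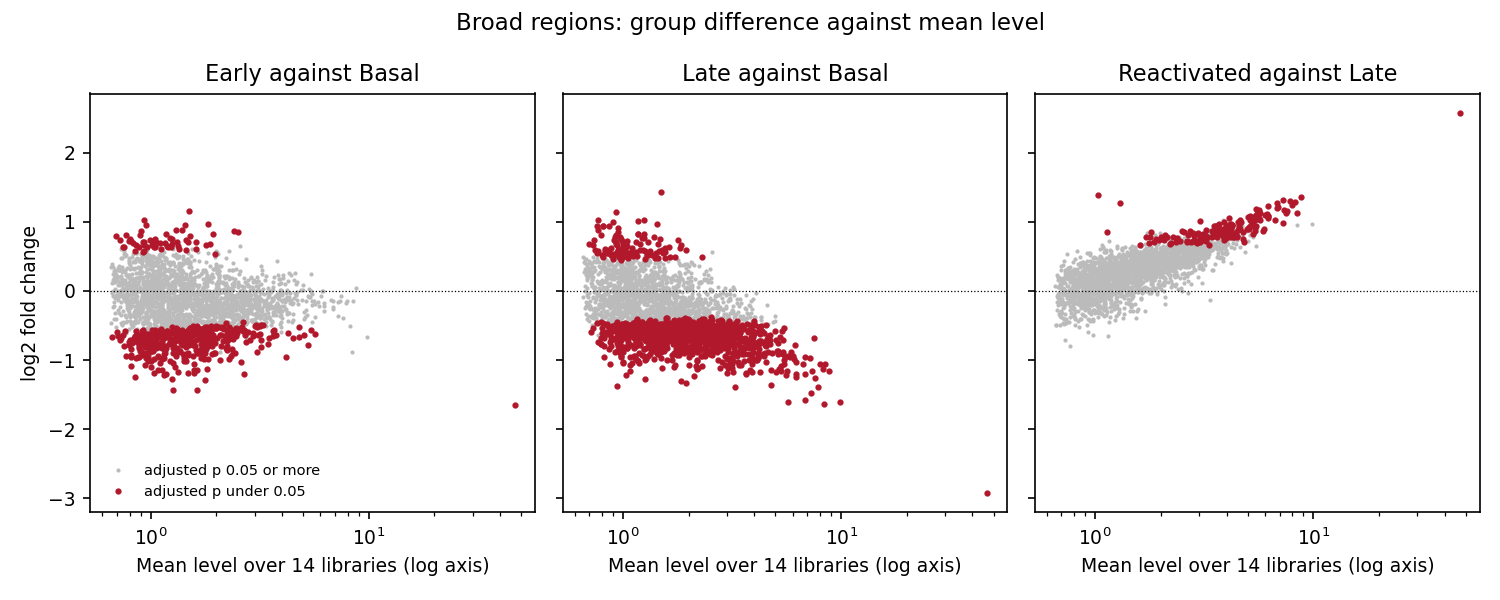
Log2 fold change, on levels divided by the column median, against mean level (log axis) for the 2491 broad regions tested in 3 comparisons; red points passed the test. In Reactivated against Late the points climb with level and all 160 that passed are positive. Of those that passed, 896 of 1004 in Late and 405 of 466 in Early against Basal are negative. On deposited RPKM the counts are 65 of 300 in Late and 31 of 104 in Early against Basal. Broad regions passed less often there than all regions tested (12.0% against 30.0% in Late, 4.17% against 12.4% in Early).

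Single regions are given below with some of the settings that ended their calls. A model with replicate number as a block ended 27 of the 77 named calls, and these losses are not listed by region. Of 77 named calls, 56 were lost with the Late libraries averaged to 1 sample, and 74 were kept at a pseudocount of 1, which made 26 of the changes more than 1.5 times smaller.

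The single broad region of highest level set the upper end of all these plots. Its mean level over the 14 libraries was 46.8, and the next broad region had 9.86. Whether copies of repeated sequence collapsed in the assembly add to it was not tested, since no repeat annotation was used. The 5748 bases of chr17:39979978-39985726 stood at levels of 69.1, 64.8 and 62.4 in Reactivated libraries, 11.5, 10.2, 10.9 and 10.3 in Late libraries, 29.9, 19.6 and 30.9 in Early libraries and 76.5, 78.1, 98.6 and 81.8 in Basal libraries. The 4 groups did not overlap, with Basal highest, Reactivated next, Early lower and Late lowest. Means were 65.5 ± 3.41 in Reactivated, 10.7 ± 0.58 in Late, 26.8 ± 6.25 in Early and 83.7 ± 10.2 in Basal (SD). Late was below Basal (log2 change of -2.93, SE 0.17, adjusted p = 6.25e-07), Early was below Basal (log2 change of -1.65, SE 0.18, adjusted p = 0.000723) and Reactivated was above Late (log2 change of 2.58, SE 0.18, adjusted p = 5.19e-06). Late was also below Early (log2 change of -1.28, SE 0.18, adjusted p = 0.00779; 0.0553 without Early 3 and 0.0502 without Late 2). After quantile normalization Late was no longer called below Basal (log2 change -0.09, adjusted p = 0.372), Early against Basal was -1.02, and the signs of Late against Early and of Reactivated against Late turned at this region. Late against Early was also lost on deposited RPKM (adjusted p = 0.128) and in a fit of both groups alone (0.0633).

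A group of broad regions of high level shared the pattern of a low Late group below the other 3 groups. At chr13:112278830-112281014 the levels were 8.76, 8.61 and 8.51 in Reactivated libraries, 3.36, 3.46, 3.11 and 3.35 in Late libraries, 5.73, 8.79 and 8.3 in Early libraries and 13.5, 8.68, 7.23 and 10.2 in Basal libraries. No Late library came near the lowest library of any other group. Reactivated was above Late (log2 change of 1.32, SE 0.20, adjusted p = 0.00916; 0.0588 without Reactivated 3) and Late was below Basal (log2 change of -1.47, SE 0.18, adjusted p = 0.000373). At chr10:98376036-98378488 the levels were 5.69, 5.92 and 6.45 in Reactivated libraries, 2.47, 2.85, 2.67 and 2.53 in Late libraries, 4.39, 6.78 and 5.36 in Early libraries and 11, 7.44, 7.14 and 8.83 in Basal libraries. Here Reactivated and Early lay between Late and Basal. Early was called below Basal (log2 change of -0.62, SE 0.18, adjusted p = 0.0297). That call was lost on deposited RPKM (adjusted p = 0.55) and without Basal 1, Basal 4, Early 1 or Early 3 (adjusted p of 0.0559 to 0.0732). Late was below Basal (log2 change of -1.60, SE 0.17, adjusted p = 0.00018), and Reactivated was above Late (log2 change of 1.12, SE 0.18, adjusted p = 0.0113; 0.0533 without Late 4, 0.0554 without Reactivated 2 and 0.0782 without Reactivated 3). On deposited RPKM both calls of Reactivated over Late were lost (adjusted p = 0.125 at chr13 and 0.195 at chr10), and after quantile normalization those changes were 0.55 and 0.56, and Late against Basal at chr13 -0.82.

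This kind of pattern was seen in 4 further regions among the largest differences or highest levels. Mean levels at chr4:3864955-3866968 were 7.43 ± 0.556 in Reactivated, 2.94 ± 0.233 in Late, 7.9 ± 2.26 in Early and 9.5 ± 2.86 in Basal (SD), with Late below Basal (log2 change of -1.57, SE 0.20, adjusted p = 0.000424). At chr18:73731359-73733524 they were 9.38 ± 1.2 in Reactivated, 3.64 ± 0.25 in Late, 8.88 ± 1.96 in Early and 10.1 ± 2.73 in Basal, with Late below Basal (log2 change of -1.39, SE 0.19, adjusted p = 0.000454). At chr3:75360067-75362624 they were 11.4 ± 1.08 in Reactivated, 4.27 ± 0.271 in Late, 10.5 ± 3.39 in Early and 10.0 ± 2.53 in Basal, with Late below Basal (log2 change of -1.15, SE 0.20, adjusted p = 0.00132). In each of these 3 regions Late libraries did not overlap those of any other group, and the Late libraries lay close together. At chr3:61166838-61169842 means were 10.5 ± 1.05 in Reactivated, 4.66 ± 0.11 in Late, 9.21 ± 2.28 in Early and 10.1 ± 2.26 in Basal, with Late below Basal (log2 change of -1.05, SE 0.18, adjusted p = 0.00121). Late was also below Early at these regions (adjusted p = 0.0162, 0.0162, 0.0224 and 0.0413 in the order named), and each of these 4 calls was lost without Early 3, at adjusted p of 0.075, 0.0765, 0.095 and 0.155, and without at least 3 of the 4 Late libraries in turn. On deposited RPKM they were lost too (adjusted p = 0.124, 0.147, 0.175 and 0.302), as in fits of both groups alone (0.0623, 0.0605, 0.0785 and 0.0994). Late against Basal was lost at both chr3 regions, at chr3:75360067-75362624 on deposited RPKM (-0.75, adjusted p = 0.0882) and after quantile normalization (-0.27, adjusted p = 0.103), and at chr3:61166838-61169842 likewise (-0.65, adjusted p = 0.117, and -0.08, adjusted p = 0.549). After quantile normalization it was -1.04 at chr4 and -0.66 at chr18.

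Before position 3100000 of chromosome 11, 3 broad regions lay close together, and 2 of them were among the 5 of highest level. At chr11:3042227-3045279 the levels were 13, 9.33 and 6.67 in Reactivated libraries, 5.77, 5.21, 3.66 and 4.2 in Late libraries, 13.2, 5.96 and 9.63 in Early libraries and 9.48, 16.2, 22.3 and 13.5 in Basal libraries. It was among the 3 regions with the largest spread over all 14 libraries, and the Basal libraries alone ran from 9.48 to 22.3. Late was below Basal (log2 change of -1.61, SE 0.28, adjusted p = 0.00123). Its neighbour chr11:3032000-3036131 had means of 8.27 ± 2.86 in Reactivated, 4.08 ± 1.03 in Late, 7.29 ± 2.87 in Early and 13.6 ± 5.1 in Basal (SD) and differed in the same direction (log2 change of -1.64, SE 0.29, adjusted p = 0.00142). After quantile normalization both calls were lost, with changes of -0.41 (adjusted p = 0.265) and -0.57 (adjusted p = 0.159). In both, Basal 3 was highest and Basal 1 lowest of the Basal libraries, and Reactivated 1 was highest of the Reactivated libraries.

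Another cluster, at the first bases that the table covers on chromosome 9, held the longest members and ran the other way. It was noticed after its values were seen: 5 broad regions lay between 3000001 and 3038220. Whether this cluster or that on chromosome 11 holds collapsed repeated sequence was not tested, since no repeat annotation was used. The longest region of all, chr9:3011707-3022716, stayed under the filter on low levels, with levels of 0.565, 0.922 and 0.446 in Reactivated libraries, 0.295, 0.271, 0.182 and 0.181 in Late libraries, 0.133, 0.131 and 0.148 in Early libraries and 0.089, 0.174, 0.215 and 0.148 in Basal libraries. All 3 Reactivated libraries were above all others. The next, chr9:3023469-3032951 (9482 bases), passed the filter with levels of 2.04, 3.12 and 1.41 in Reactivated libraries, 0.862, 0.638, 0.511 and 0.598 in Late libraries, 0.774, 0.611 and 0.668 in Early libraries and 0.563, 0.766, 1.19 and 0.602 in Basal libraries. Reactivated libraries were again all above the others, although they differed among themselves, with Reactivated 2 highest.

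Reactivated was above Basal at chr9:3023469-3032951 (log2 change of 1.22, SE 0.25, adjusted p = 0.00604), above Early (log2 change of 1.33, SE 0.27, adjusted p = 0.0203) and above Late (log2 change of 1.39, SE 0.25, adjusted p = 0.0204). The call against Early was lost at an adjusted p of 0.0641 without Early 1, 0.0519 without Early 3, 0.0676 without Reactivated 1 and 0.0568 without Reactivated 2, and that against Late at 0.0644 without Late 2, 0.0746 without Late 3, 0.0745 without Late 4, 0.0746 without Reactivated 1 and 0.0876 without Reactivated 2. The neighbour 875 bases away, chr9:3033826-3038220, had means of 2.68 ± 1.04 in Reactivated, 0.924 ± 0.143 in Late, 0.82 ± 0.14 in Early and 1.01 ± 0.377 in Basal (SD) and was higher in Reactivated than in Basal (log2 change of 1.20, SE 0.25, adjusted p = 0.00671). The first region of the cluster, chr9:3000001-3004815, averaged 1.49 in Reactivated, 0.457 in Late, 0.354 in Early and 0.415 in Basal. The second by position, chr9:3005841-3008551, averaged 0.151, 0.136, 0.0460 and 0.0391, with Late near Reactivated. Both calls of Reactivated over Basal in this cluster were lost once the share of reads in regions was in the model (adjusted p = 0.101 and 0.0894). The log2 changes in that model were larger, 1.56 and 1.61. Reactivated over Early was lost in a fit of both groups alone (adjusted p = 0.155).

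Basal was the lowest group in 478 of the 2491 broad regions tested (19.2%), compared with 36.6% of regions of 400 to 700 bases. Those broad regions named for the size of their difference were of modest level. At chr5:6870978-6873809 the levels were 1.3, 1.67 and 2.02 in Reactivated libraries, 2.44, 2.03, 2.06 and 1.79 in Late libraries, 1.33, 2.36 and 1.44 in Early libraries and 0.769, 0.563, 0.572 and 0.545 in Basal libraries. Every library of the other 3 groups was above every Basal library. The difference passed in Late (log2 change of 1.44, SE 0.19, adjusted p = 0.000454), Early (log2 change of 1.15, SE 0.21, adjusted p = 0.00382) and Reactivated (log2 change of 1.14, SE 0.21, adjusted p = 0.00376). At chr6:55814595-55816661 the levels were 2.16, 1.94 and 2.14 in Reactivated libraries, 1.72, 1.56, 1.72 and 1.33 in Late libraries, 1.24, 2.05 and 1.48 in Early libraries and 0.632, 0.845, 0.48 and 0.823 in Basal libraries. Again no library overlapped the Basal group, and Reactivated had the largest difference from it (log2 change of 1.32, SE 0.20, adjusted p = 0.00216), followed by Late (log2 change of 0.97, SE 0.18, adjusted p = 0.00193) and Early (log2 change of 0.96, SE 0.20, adjusted p = 0.00686). With the share of reads in regions in the model, the calls of Reactivated over Basal were lost at both regions (log2 changes of 0.78 and 1.03, adjusted p = 0.173 and 0.11).

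The Basal mean was also lowest in 4 others of the named regions. Means at chr8:51049335-51051503 were 0.785 ± 0.0962 in Reactivated, 1.31 ± 0.147 in Late, 1.19 ± 0.241 in Early and 0.456 ± 0.0315 in Basal (SD), where Late (log2 change of 1.14, SE 0.17, adjusted p = 0.00062) and Early (log2 change of 1.02, SE 0.18, adjusted p = 0.00346) were above Basal. At chr13:23376106-23379137 they were 1.37 ± 0.0839 in Reactivated, 1.67 ± 0.123 in Late, 1.33 ± 0.214 in Early and 0.692 ± 0.119 in Basal, with Late above Basal (log2 change of 1.03, SE 0.16, adjusted p = 0.000821). At chr14:81358527-81360574 they were 0.802 ± 0.21 in Reactivated, 1.12 ± 0.254 in Late, 0.708 ± 0.217 in Early and 0.427 ± 0.135 in Basal, with Late above Basal (log2 change of 1.02, SE 0.22, adjusted p = 0.00373). There Early 3 (0.487) overlapped the Basal libraries, and 25 to 177 reads stood behind each value. At chr10:101144070-101146103 means were 2.38 ± 0.587 in Reactivated, 1.82 ± 0.226 in Late, 2.37 ± 0.76 in Early and 1.06 ± 0.242 in Basal, with Early above Basal (log2 change of 0.97, SE 0.22, adjusted p = 0.0113; 0.0698 without Early 2; 0.058 in a fit of both groups alone).

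Of the 4 broad regions named for being lower in Reactivated than in Basal, Late was close to Reactivated in 3, and the Early libraries differed widely in all 4. At chr1:26742887-26745181 the levels were 1.81, 2.73 and 1.88 in Reactivated libraries, 2.83, 2.14, 2.29 and 2.1 in Late libraries, 5.37, 1.98 and 3.76 in Early libraries and 3.96, 6.28, 5.16 and 4.85 in Basal libraries. Reactivated and Late lay below all Basal libraries, and Early 1 reached the Basal range while Early 2 did not. Reactivated was below Basal (log2 change of -1.16, SE 0.25, adjusted p = 0.00761), as was Late (log2 change of -1.03, SE 0.24, adjusted p = 0.00524). At chr3:93005683-93007718 the levels were 0.483, 0.646 and 0.589 in Reactivated libraries, 0.577, 0.412, 0.452 and 0.481 in Late libraries, 1.49, 0.481 and 0.95 in Early libraries and 1.25, 1.84, 1.83 and 1.68 in Basal libraries. Early 1 was again within the Basal range and Early 2 within the Late range. Reactivated (log2 change of -1.20, SE 0.25, adjusted p = 0.00573) and Late (log2 change of -1.37, SE 0.23, adjusted p = 0.00105) were below Basal. The Late call at chr1 was lost after quantile normalization (adjusted p = 0.0579).

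The other 2 regions named by that comparison behaved alike in Early. Means at chr14:17684837-17688775 were 0.541 ± 0.158 in Reactivated, 0.698 ± 0.0262 in Late, 1.16 ± 0.615 in Early and 1.47 ± 0.0958 in Basal (SD), with Reactivated below Basal (log2 change of -1.14, SE 0.24, adjusted p = 0.00656). At chr10:57693748-57696866 they were 0.343 ± 0.0776 in Reactivated, 0.728 ± 0.212 in Late, 0.725 ± 0.427 in Early and 1.02 ± 0.195 in Basal, with Reactivated below Basal (log2 change of -1.10, SE 0.27, adjusted p = 0.0124; 0.0564 without Reactivated 3). The Early SD was more than 0.5 of the Early mean in both. All 4 regions lost the call once the share of reads in regions was added to the model, at adjusted p of 0.252, 0.26, 0.274 and 0.453 and log2 changes of -0.45, -0.57, -0.68 and -0.46 in the order named. On deposited RPKM the changes were -0.70, -0.74, -0.68 and -0.65. The share was 27.8% in Early 2, 18.1% in Early 3 and 13.8% in Early 1.

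By the median over a chromosome's broad regions, losses in Early were largest on chromosome 7. At chr7:26539320-26541417 the levels were 2.2, 1.56 and 1.95 in Reactivated libraries, 2.01, 2.11, 1.64 and 1.75 in Late libraries, 0.455, 0.585 and 0.684 in Early libraries and 1.82, 1.8, 2.25 and 1.98 in Basal libraries. The Early libraries lay far under the other 3 groups, which overlapped. Early was below Basal (log2 change of -1.43, SE 0.18, adjusted p = 0.001), Late was above Early (log2 change of 1.37, SE 0.18, adjusted p = 0.0041) and Reactivated was above Early (log2 change of 1.38, SE 0.19, adjusted p = 0.00642). The differences from Basal and between Late and Early kept the call without any 1 library, at adjusted p of 0.00109 to 0.00488 and 0.0044 to 0.0267, whereas Reactivated over Early was lost in a fit of both groups alone (adjusted p = 0.155). Means at chr7:5011878-5014325 were 1.11 ± 0.376 in Reactivated, 1.45 ± 0.39 in Late, 0.503 ± 0.0729 in Early and 1.78 ± 0.257 in Basal (SD), with Early below Basal (log2 change of -1.43, SE 0.23, adjusted p = 0.00242). At chr7:6680086-6682502 they were 3.00 ± 0.814 in Reactivated, 2.99 ± 0.136 in Late, 1.25 ± 0.352 in Early and 3.15 ± 0.545 in Basal, with Early below Basal (log2 change of -1.20, SE 0.20, adjusted p = 0.00296; 0.0615 on deposited RPKM).

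These 3 regions lay before position 55000000 of chromosome 7, a stretch with 8 broad regions that was chosen after its values were seen. All 8 fell in Early against Basal, with a median log2 fold change of -1.20, and 6 of 8 were higher in Late than in Early. Their median level was 2.21, 1.54 and 1.58 in Reactivated, 1.50, 1.78, 1.47 and 1.73 in Late, 0.636, 0.621 and 0.688 in Early and 1.85, 1.61, 2.12 and 1.93 in Basal libraries. The rest of chromosome 7 held 22, of which 18 fell in Early against Basal (median -0.74), but there Late was low as well: median levels were 1.38, 1.43 and 1.39 in Reactivated, 1.07, 1.07, 0.929 and 1.02 in Late, 0.927, 0.938 and 1.06 in Early and 2.00, 1.83, 1.78 and 1.79 in Basal. In Late against Basal, 1 of the 8 and 16 of the 22 fell.

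Chromosome 17 came next. Of its 51 broad regions tested, 25 fell and 0 rose in Early against Basal (median -0.53), and 25 fell and 0 rose in Late against Basal (median -0.46). Of its 1096 tested regions of 400 to 700 bases, 189 fell and 62 rose in Early against Basal, and 139 fell and 153 rose in Late against Basal. On the other autosomes the median of Early against Basal lay between -0.35 on chromosome 15 and -0.07 on chromosome 13. Regions of 400 to 700 bases differed by chromosome too, with medians of -0.53 on chromosome 7, -0.23 on chromosome 17 and -0.08 to 0.10 elsewhere. Leaving out both chromosomes, 354 of 2410 broad regions were lower and 61 higher in Early against Basal (median -0.16, against -0.17 with them).

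Single regions with a low Early group were also found elsewhere. At chr17:45709390-45711692 the levels were 2.48, 1.8 and 2.14 in Reactivated libraries, 1.17, 1.51, 1.57 and 1.57 in Late libraries, 0.884, 0.753 and 0.998 in Early libraries and 2.56, 2.28, 2.2 and 2.95 in Basal libraries. All Early libraries were below all others, and Late lay between Early and Basal. Early was below Basal (log2 change of -1.28, SE 0.17, adjusted p = 0.00133), in every one of the other settings too. At chr5:31189805-31191890 the levels were 3.91, 2.88 and 2.88 in Reactivated libraries, 2.16, 2.5, 2.38 and 2.38 in Late libraries, 1.12, 1.27 and 1.02 in Early libraries and 2.01, 1.9, 2.63 and 2.16 in Basal libraries. Early was lowest without overlap, and Reactivated was above it (log2 change of 1.32, SE 0.17, adjusted p = 0.00591), at adjusted p of 0.00491 to 0.0336 when 1 library was left out at a time and 0.155 in a fit of both groups alone. At chr19:5792790-5795154 means were 1.15 ± 0.178 in Reactivated, 1.19 ± 0.249 in Late, 0.435 ± 0.0772 in Early and 0.805 ± 0.209 in Basal (SD). Late was above Early there (log2 change of 1.06, SE 0.21, adjusted p = 0.0298; 0.0555 to 0.0998 without Early 1, Early 3, Late 1, Late 2, Late 3 or Late 4, and 0.0831 in a fit of both groups alone).

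**Figure D5:**
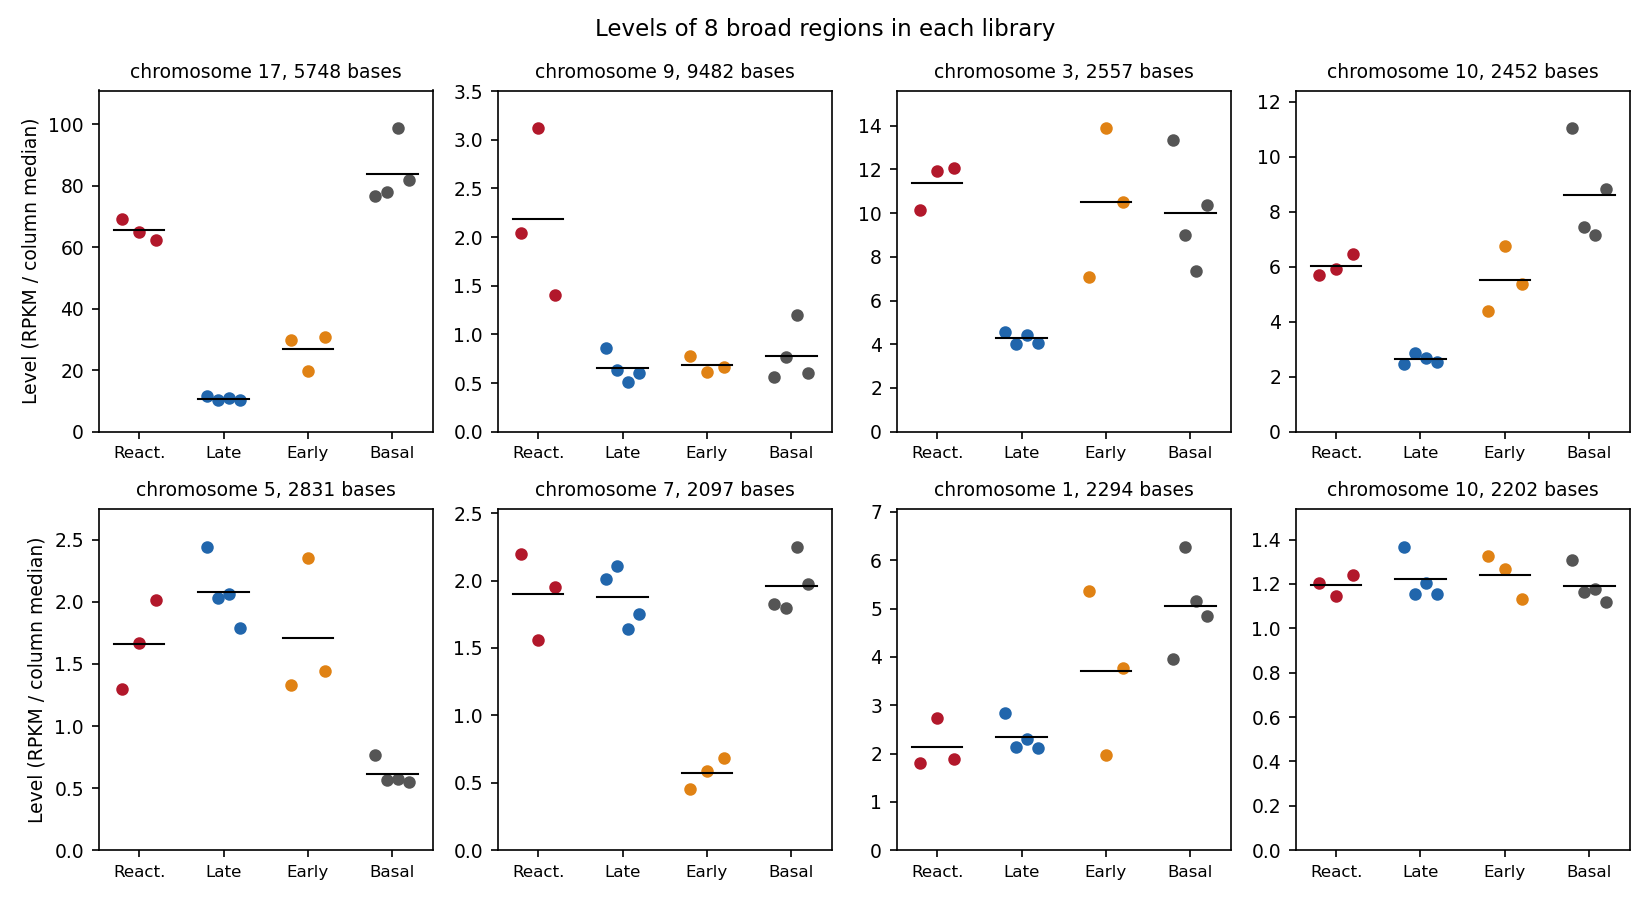
Level (RPKM over the library's median) of 8 named broad regions in each library, with group means as bars; each panel has its own axis from 0. The panels show low Late libraries (chr17, chr3 and chr10), high Reactivated libraries (chr9), low Basal libraries (chr5), low Early libraries (chr7), low Reactivated and Late libraries (chr1) and a region whose groups overlap (chr10, 1.19 to 1.24 in the means).

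Some broad regions hardly moved. The 3 with the smallest SD of the log2 level over all 14 libraries were chr10:106854950-106857152, chr18:30165234-30168023 and chr8:67328776-67331430. At the first, levels were 1.21, 1.15 and 1.24 in Reactivated libraries, 1.37, 1.16, 1.2 and 1.16 in Late libraries, 1.32, 1.27 and 1.13 in Early libraries and 1.31, 1.16, 1.18 and 1.12 in Basal libraries. The groups overlapped throughout, although 128 to 259 reads stood behind each value. Means at the second were 1.07 ± 0.0985 in Reactivated, 0.994 ± 0.0839 in Late, 1.14 ± 0.0416 in Early and 1.06 ± 0.0643 in Basal and at the third 0.981 ± 0.0492 in Reactivated, 0.953 ± 0.105 in Late, 0.995 ± 0.131 in Early and 1.00 ± 0.0699 in Basal (SD). None of the 3 passed the test in any comparison, which does not show that they were alike in all groups.

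The longest members did not all change. Apart from those on chromosomes 9 and 17, the longest were chr14:84842407-84848394 (5987 bases) and chr5:58106345-58111228 (4883 bases). At the first, levels were 3.31, 3.68 and 4.06 in Reactivated libraries, 2.45, 2.37, 2.35 and 2.32 in Late libraries, 2.75, 3.41 and 3.18 in Early libraries and 4.01, 3.19, 2.94 and 3.74 in Basal libraries, and Late was below Basal (log2 change of -0.50, SE 0.14, adjusted p = 0.0153), a call lost on deposited RPKM (-0.12, adjusted p = 0.739) and after quantile normalization (-0.18, adjusted p = 0.228). At the second, means were 3.57 ± 0.272 in Reactivated, 2.81 ± 0.108 in Late, 3.27 ± 0.58 in Early and 2.93 ± 0.469 in Basal (SD), and no comparison passed. The broad regions that passed had median widths of 2204 to 2330 bases in every comparison and direction, close to the class median of 2272.

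The limit of 2000 bases cut through a continuous range of widths. Just inside it, at 2000 bases, chr16:45157895-45159895 averaged 3.09 ± 0.54 in Reactivated, 2.23 ± 0.13 in Late, 2.4 ± 0.227 in Early and 3.16 ± 0.627 in Basal, chr16:97756211-97758211 averaged 0.988 ± 0.0726 in Reactivated, 0.895 ± 0.139 in Late, 0.631 ± 0.057 in Early and 0.958 ± 0.171 in Basal and chr2:17985459-17987459 averaged 3.46 ± 0.269 in Reactivated, 1.98 ± 0.22 in Late, 2.76 ± 0.482 in Early and 4.39 ± 0.563 in Basal (SD). Just outside, at 1999 bases, chr10:71872947-71874946 averaged 1.63 ± 0.505 in Reactivated, 1.46 ± 0.14 in Late, 1.61 ± 0.272 in Early and 1.03 ± 0.239 in Basal, chr11:29592294-29594293 averaged 5.96 ± 0.747 in Reactivated, 3.07 ± 0.133 in Late, 4.7 ± 1.5 in Early and 4.54 ± 1.2 in Basal and chr13:22134282-22136281 averaged 3.98 ± 0.843 in Reactivated, 2.7 ± 0.115 in Late, 2.52 ± 0.975 in Early and 1.97 ± 0.395 in Basal. Late against Basal changed gradually over the limit, with medians of 0.00 at 1000 to 1500 bases, -0.14 at 1500 to 2000, -0.29 at 2000 to 3000 and -0.39 at 3000 or more. Reactivated against Late did so too, with 0.14, 0.22, 0.29 and 0.37 in the same classes.

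Broad regions took a larger share of the highest levels than of the table. Of the 1000 autosomal regions of highest mean level, 79 were broad in Reactivated, 47 in Late, 82 in Early and 105 in Basal, compared with 1.40% of all autosomal regions. The 105 in Basal are 10.5% of that list and 4.03% of the broad regions.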

How the data were processed

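ATAC-seq was measured in 14 libraries of sorted hippocampal neuronal nuclei, deposited as 1 table of RPKM per region. The authors' values are RPKM per the file header, and the submitters' processing notes name mm9 as the build and, as tools, DESeq2, DiffBind, MACS2, SAMtools and Bowtie2 2.0. How peaks were pooled, how duplicates and Tn5 offsets were treated, and whether starts count from 0 or 1 was not found in those notes. The RPKM steps returned whole reads for 100% of values (within 0.01 of a read), and the table holds 0 zeros, so its lowest values equal 1 read.

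Members and rules were chosen with earlier results of these data known. Each column was divided by its median over all regions. Group differences were tested with limma 3.58.1 in R 4.3.3 on log2(level + 0.25), with an intensity trend and robust variance, all 14 libraries in 1 fit and the lowest 10% of regions by mean level left out. Tests were 2-sided and Benjamini-Hochberg adjustment covered the 172143 of 191271 regions tested, at 0.05. The fit was tested on simulated data first. Descriptions used Python 3.11.15 with pandas 2.3.3, numpy 2.4.6 and scipy 1.17.1, and plots matplotlib 3.10.9.

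Regions named in the text were the 5 longest, the 5 highest and 3 lowest by level, the 3 with the smallest and the 3 with the largest SD, 3 on either side of the width limit, the closest pairs and, per comparison, the 4 largest gains and losses that passed without overlap of the groups. The chromosome 9 and 11 clusters, the splits of chromosomes 7 and 17 and the lists of the top 1000 regions were chosen after their values were seen. Alternatives were other pseudocounts, filters, scalings, models, width limits and comparison classes, and each library left out. Gene lists, marker checks, sequences and a separate permutation test of single regions were not used here.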

Additional observations from a re-analysis of the deposited data

Results flagged for a closer look

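In groups of 4 libraries, the levels of 44 named regions and 4 class measures were checked in Late and in Basal for a library far from its neighbours, and 2 of 96 checks were flagged, where chance flags about 1 in 20. At chr17:45709390-45711692, Late 1 had a level of 1.17, against 1.51, 1.57 and 1.57 in the other Late libraries, a gap of 0.854 of the group's range. At chr5:6870978-6873809, Basal 1 had a level of 0.769, against 0.563, 0.572 and 0.545 in the other Basal libraries, a gap of 0.880 of the range. Basal 1 was still below every library of the other groups there, and Late 1 at the chromosome 17 region was still above every Early library.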

How the results depend on the processing

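The share of broad regions called was 18.7% in Early, 40.3% in Late and 8.31% in Reactivated against Basal, 1.93% in Late and 5.38% in Reactivated against Early, and 6.42% in Reactivated against Late. In that order of comparisons, where a share moved by over 1.5 times, deposited RPKM gave 4.17%, 12.0%, 16.2%, 0.160%, 1.28% and 0.160%. Over all regions tested, deposited RPKM gave 12.4%, 30.0%, 29.1%, 0.414%, 1.36% and 0.231%. Late averaged to 1 sample gave 8.59%, 0%, 3.09%, 0%, 0% and 0% (unadjusted p under 0.05 in 510, 87, 473 and 246 regions at the zeros). Voom gave 31.8% in Early and 17.2% in Reactivated against Basal, 7.99% in Late and 15.7% in Reactivated against Early and 24.0% in Reactivated against Late. Fits of the 2 groups alone gave 4.62%, 4.22%, 0.0401%, 0% (359 unadjusted) and 18.2% for the same 5. The replicate block gave 8.31%, 3.53%, 0.0401%, 1.00% and 0.0401% for the same 5, but the numbers did not pair the libraries (r of deviations -0.24 to 0.06 in 19 pairs, 0 above 0.1, and 0 of 14 libraries matched best to their own number). With the share of reads in regions in the model, Reactivated against Basal gave 0% (237 unadjusted) and Late against Early 7.39%. The unadjusted counts of 359 and 237 have no count over all regions beside them and are not read as results about broad regions. Late against Early was 1.12% at a pseudocount of 1. Reactivated against Late was 0.442% after quantile normalization and 2.21% without trend and robust variance. Leaving out 1 library gave 7.38% to 19.6%, 29.4% to 43.0%, 2.13% to 10.1%, 0.0401% to 3.28%, 0.241% to 9.15% and 0.0803% to 12.0%. The broad median minus that of 400 to 700 bases (log2) was taken as moved when it shifted by more than an SD between libraries. That SD was of another measure, the log2 ratio of class medians, pooled within groups. In Late against Basal (-0.35) the difference of medians moved to -0.23 at a pseudocount of 1 and -0.24 after quantile normalization. It moved to -0.23 from 1500 bases, -0.44 from 3000 bases and -0.22 against 200 to 400 bases. Against 200 to 400 bases it was also 0.0888 in Reactivated against Basal, 0.00376 in Late against Early and 0.30 in Reactivated against Early. Against 700 to 2000 bases it was 0.0880 in Reactivated against Early and 0.18 in Reactivated against Late, which was 0.19 at a pseudocount of 1 and after quantile normalization. Without 1 library it was -0.25 to -0.15, -0.37 to -0.32, -0.09 to -0.01, -0.09 to -0.05, 0.16 to 0.24 and 0.26 to 0.29. The log2 ratio of class medians was 0.52, 0.29, 0.30 and 0.45 from 1500 bases and 1.02, 0.65, 0.73 and 1.02 from 3000 bases in Reactivated, Late, Early and Basal. Against 200 to 400 bases it was 0.34 in Early and 0.53 in Basal, and against 700 to 2000 bases 0.45 in Reactivated, 0.23 in Late and 0.32 in Early. Without 1 library it was 0.66 to 0.69, 0.35 to 0.37, 0.40 to 0.47 and 0.63 to 0.71. Of 77 named results, 7 kept their call and sign in all 27 settings, and 2 reversed, both at chr17:39979978-39985726 after quantile normalization, with 0.93 in Late against Early (adjusted p = 9.74e-05) and -0.65 in Reactivated against Late (adjusted p = 0.00226). The cause of these shifts was not tested.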
